A study of Mus musculus with 8 samples.

Results

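The core circadian clock genes are 10 genes whose products form the transcription loops that time the day in nearly every mouse tissue. They were taken by name, Arntl (also called Bmal1), Clock and Npas2 as the activator arm and Per1, Per2, Per3, Cry1, Cry2, Nr1d1 and Nr1d2 as the repressor arm, and they are 10 of the 18193 genes that could be read. The arrays carry 23 probesets for them, a probeset being a group of short probes that reads a transcript, and each gene was read by the probeset with the highest mean signal over all hearts. All 10 were measured, so none was left out.

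RNA was isolated from the total heart of 4 SRC-2 KO and 4 WT mice, 1 heart per Affymetrix mouse expression array. The SRC-2 KO mice carry a germline disruption of Ncoa2, which encodes the steroid receptor coactivator SRC-2, and the WT mice were littermates of wild type genotype. All 8 mice were males of the strain labelled C57B/6Jx129Sv, fed ad lib, 10 to 12 weeks old by the labels, and the hearts had not been stressed. The hour at which hearts were collected is not given in the sources used here, so genotype and time of day cannot be told apart for genes that cycle. The signals are array intensities, each array scaled to the same trimmed mean, and log2 of the signal was tested.

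The median signal of all probesets was 75.6 to 83.2 in the KO arrays and 77.0 to 87.3 in the WT arrays. Between 36.9% and 40.7% of probesets lay under a signal of 50, called dim here. Ncoa2 was read at 237.0, 259.6, 267.4 and 235.1 in the KO hearts, against 1660, 2115, 1827 and 2134 in the WT hearts, a log2 fold change of −2.95 (adjusted p = 5.89e-04 in limma with a common prior variance, and 9.61e-08 where the prior variance follows the signal). Of its 3 other probesets, 1 also separated the genotypes (log2 fold change −2.63) and 2, with mean signals of 62.8 and 54.3, did not. All 8 arrays thus matched the genotype of their label by the bright probeset. The fits are named by these as the common prior and the trended prior, SE is the standard error with the common prior, and both adjust p by Benjamini-Hochberg over all 18193 genes. At an adjusted p under 0.05 the common prior called 1 gene higher (0.0055% of genes) and 3 lower (0.0165%), and the trended prior called 22 higher (0.121%) and 47 lower (0.258%). Precision is limited by having 4 arrays to a genotype.

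In the mouse clock, the basic helix-loop-helix proteins BMAL1 and CLOCK, or its paralog NPAS2, pair and bind E-box elements, which drives Per, Cry and Nr1d genes. The PER and CRY proteins then return to the nucleus and inhibit the BMAL1 pair, while the nuclear receptors REV-ERBα and REV-ERBβ, encoded by Nr1d1 and Nr1d2, bind RORE elements and repress Arntl, Npas2, Clock and Cry1. D-box elements are bound by the PAR bZIP factors DBP, TEF and HLF, whose own genes are E-box driven outputs. The loop runs in cardiomyocytes too, where it times genes of fuel use and ion channels. Because of this wiring, Arntl and Npas2 peak in mouse tissues at another time of day than Nr1d1, Nr1d2 and Dbp.

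The 3 kinds of element were searched in the RefSeq promoter windows of the mouse assembly GRCm38.p6, each of 300 bases with 250 before the start of a transcript, on both strands. The letters were CACGTG for the E-box (in 7.15% of all 32851 windows), TAGGTCA or TGGGTCA for the RORE core (in 6.45%) and TTATGTAA or TTACGTAA for the D-box (in 1.06%), and no 2 matches overlapped. Windows were held for 9 of the 10 genes, all but Per2. Matches stood in windows of Arntl, Per1, Per3 and Cry1, and none in those of Clock, Npas2, Cry2, Nr1d1 and Nr1d2, which says only that these letters are not in these windows. The 4 clock gene windows with a match are printed because they hold the elements through which the loop is known to act, and a window of Tef is added because Tef was the clock output gene that passed with the trended prior. Capitals mark the element, the sequences run 5′ to 3′ on the gene's strand, and positions count from the start of the transcript as 0.
Arntl, second of 2 windows, chr7:113207261-113207560, plus strand, RORE core at 30: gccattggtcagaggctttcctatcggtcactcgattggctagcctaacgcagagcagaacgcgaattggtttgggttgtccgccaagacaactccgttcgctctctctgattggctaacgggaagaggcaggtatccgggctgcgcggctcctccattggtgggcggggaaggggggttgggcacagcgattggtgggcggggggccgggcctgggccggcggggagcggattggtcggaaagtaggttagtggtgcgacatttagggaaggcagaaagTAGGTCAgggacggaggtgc
Cry1, chr10:85185005-85185304, minus strand, E-box at −60: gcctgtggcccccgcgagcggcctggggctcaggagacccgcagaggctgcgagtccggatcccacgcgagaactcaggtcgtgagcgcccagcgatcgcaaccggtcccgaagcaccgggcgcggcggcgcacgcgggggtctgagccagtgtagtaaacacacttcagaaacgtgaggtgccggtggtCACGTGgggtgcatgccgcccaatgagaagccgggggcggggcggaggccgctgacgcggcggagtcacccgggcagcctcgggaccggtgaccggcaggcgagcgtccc
Per1, first of 2 windows, chr11:69098699-69098998, plus strand, E-box at −166: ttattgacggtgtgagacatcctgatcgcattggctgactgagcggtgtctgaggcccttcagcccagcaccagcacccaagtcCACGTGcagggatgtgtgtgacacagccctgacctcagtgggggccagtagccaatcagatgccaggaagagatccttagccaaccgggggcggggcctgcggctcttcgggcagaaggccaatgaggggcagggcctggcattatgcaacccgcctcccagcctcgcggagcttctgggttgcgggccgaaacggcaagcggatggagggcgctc
Per3, chr4:151044616-151044915, minus strand, D-boxes at −205 and −158: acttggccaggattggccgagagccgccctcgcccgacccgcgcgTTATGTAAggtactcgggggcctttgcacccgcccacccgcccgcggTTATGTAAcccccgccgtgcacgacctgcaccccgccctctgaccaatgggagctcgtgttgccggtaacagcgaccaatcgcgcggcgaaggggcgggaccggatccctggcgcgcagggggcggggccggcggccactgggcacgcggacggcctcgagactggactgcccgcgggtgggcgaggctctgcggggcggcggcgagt
Tef, second of 2 windows, chr15:81811164-81811463, plus strand, E-box at −138: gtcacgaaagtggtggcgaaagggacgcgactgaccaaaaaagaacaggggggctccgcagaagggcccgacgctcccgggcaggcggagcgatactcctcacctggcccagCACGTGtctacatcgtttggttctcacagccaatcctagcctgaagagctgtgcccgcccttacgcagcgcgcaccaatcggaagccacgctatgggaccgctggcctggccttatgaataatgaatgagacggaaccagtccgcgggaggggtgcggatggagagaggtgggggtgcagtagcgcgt
The other Tef window also held an E-box, at −127, and the single windows of Dbp and Hlf held none of the searched letters. A match is a description of the sequence and not a site shown to be bound.

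All 3 genes of the activator arm had a lower mean in KO than in WT hearts, and of the 7 repressor genes 5 had a higher mean and 2 a lower one. The 10 together were thus 5 higher and 5 lower. Of all 18193 genes, 8557 had a positive and 9636 a negative log2 fold change, which is the background for this and the later counts of signs. None of the 10 passed an adjusted p of 0.05 with the common or the trended prior, where 0.022% and 0.379% of all genes did. The adjusted p of the 10 ran between 0.404 and 0.994 with the common prior and between 0.155 and 0.992 with the trended prior. At an unadjusted p under 0.05 stood 4 of the 10 (Arntl, Npas2, Cry1 and Nr1d2) with the common prior, against a background of 10.1% of all genes, and 5 (these and Clock) with the trended prior, against 12.6%. Only Npas2 separated the genotypes, all KO values being below all WT values, as in 3.72% of all genes (3.1% had all KO values above, 6.82% either). The median log2 fold change was −0.50 for the activators and 0.11 for the repressors, beside −0.03 for all genes tested.

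**Figure D1:**
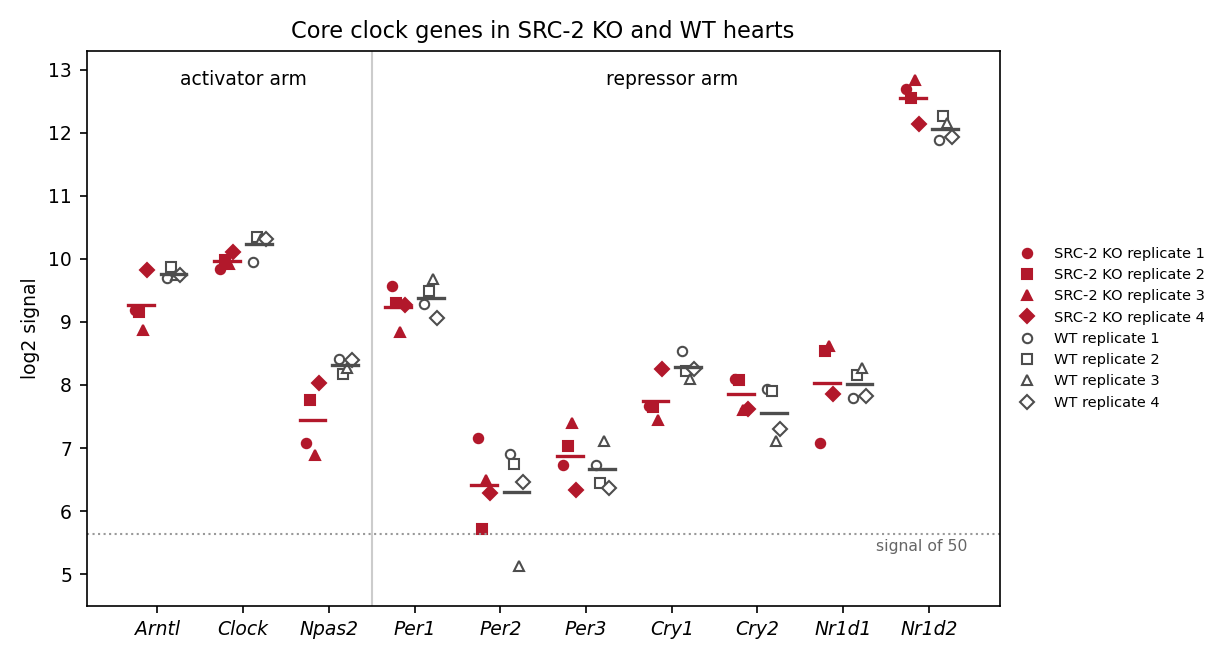
The log2 signal of each clock gene's brightest probeset is plotted for every heart (filled red, SRC-2 KO; open grey, WT; the marker shape gives the replicate number), with a line at each genotype's mean and a dotted line at a signal of 50. The Npas2 points of the KO hearts all lie below those of the WT hearts, and KO replicate 4 (diamond) lies within the WT range in 8 of the 10 genes.

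Npas2, the paralog that can replace CLOCK as partner of BMAL1, had the largest difference of the 10. Its signal was 135.6, 217.8, 118.9 and 262.9 in the KO hearts, against 341.3, 288.6, 306.9 and 337.6 in the WT hearts. The 2 genotypes did not overlap, and the lowest KO signals were in replicates 3 and 1. The log2 fold change was −0.87 (SE 0.27, adjusted p of 0.404 with the common prior and 0.182 with the trended prior), or 0.548 of the WT level. For this probeset alone the two-sided exact permutation test of the 8 hearts gave p = 0.0286, the smallest p that 4 against 4 allows. Any gene without overlap gets this p, as 6.82% of all genes do, so it adds nothing to the lack of overlap. The same test gave 0.114 for the brightest probeset of Arntl and 0.0857 for those of Clock, Cry1 and Nr1d2. The other Npas2 probeset averaged a signal of 31.2 and stood under 50 on 7 arrays. Npas2 lies on chromosome 1, as do Per2 and the disrupted Ncoa2, and whether this location bears on the Npas2 values was not tested.

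Arntl encodes BMAL1, which pairs with CLOCK or NPAS2. Its signal was 586.5, 573.0, 469.9 and 902.3 in the KO hearts, against 825.3, 934.5, 861.5 and 861.0 in the WT hearts. KO replicates 1 to 3 lay below every WT heart and KO replicate 4 lay inside the WT range. The log2 fold change was −0.50 (SE 0.20, adjusted p of 0.478 with the common prior and 0.233 with the trended prior). This probeset carries the _a_at mark, which Affymetrix gives to probesets shared by transcripts of 1 gene, and the unmarked Arntl probeset, with a mean signal of 73.8, gave a log2 fold change of 0.04.

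Clock encodes the histone acetyltransferase that pairs with BMAL1. It read 917.4, 1015, 972.0 and 1099 in the KO hearts, against 992.6, 1306, 1275 and 1275 in the WT hearts. WT replicate 1 stood apart from the other WT hearts and made the genotypes overlap. The log2 fold change was −0.27 (SE 0.13, adjusted p of 0.532 with the common prior and 0.341 with the trended prior). Its 2 further probesets with a mean signal above 500 did not point one way, at log2 fold changes of 0.32 (exact permutation p = 0.371) and −0.33 (exact permutation p = 0.143).

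Among the repressors, the 2 cryptochromes, which bind and inhibit the BMAL1 pair, differed in sign. Cry1 read 203.8, 200.4, 174.1 and 304.7 in the KO hearts, against 371.4, 299.4, 274.7 and 305.5 in the WT hearts. As with Arntl, KO replicates 1 to 3 lay below every WT heart and KO replicate 4 did not. The log2 fold change was −0.53 (SE 0.20, adjusted p of 0.462 with the common prior and 0.332 with the trended prior), which puts this repressor on the side of the activators. Cry2 read 274.8, 270.2, 194.0 and 196.1 in the KO hearts, against 243.9, 238.3, 137.8 and 157.8 in the WT hearts, with overlap and a log2 fold change of 0.29 (SE 0.24, adjusted p of 0.706 with the common prior and 0.698 with the trended prior).

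The period genes, whose proteins carry the cryptochromes into the repressor complex, showed no genotype difference beyond the spread between hearts. Per1, which also answers directly to glucocorticoid and cAMP signals, read 761.1, 631.0, 457.2 and 614.1 in the KO hearts, against 626.1, 722.7, 822.8 and 532.4 in the WT hearts. The KO and WT ranges were nearly the same, and the log2 fold change was −0.14 (SE 0.20, adjusted p of 0.832 with the common prior). Per3 read 106.5, 130.2, 168.5 and 80.83 in the KO hearts, against 106.5, 87.27, 137.8 and 82.05 in the WT hearts, a log2 fold change of 0.21 (SE 0.27, common prior adjusted p = 0.807). Per2 was near the dim end, at 142.2, 52.69, 90.41 and 77.92 in the KO hearts, against 119.2, 106.8, 35.01 and 87.94 in the WT hearts. Its log2 fold change was 0.11 (SE 0.46, common prior adjusted p = 0.949) and became −0.28 without WT replicate 3, the only heart in which Per2 was under 50, so Per2 had no settled sign. The mean of all probesets gave −0.25 for Per2 and −0.13 for Per3, whose further probesets are mostly dim.

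The 2 REV-ERB genes, which repress Arntl and Npas2 in the mouse, are given side by side. Nr1d2 read 6636, 5983, 7316 and 4525 in the KO hearts, against 3787, 4919, 4573 and 3923 in the WT hearts. KO replicates 1 to 3 were above every WT heart and KO replicate 4 was within the WT range. The log2 fold change was 0.49 (SE 0.18, adjusted p of 0.453 with the common prior and 0.155 with the trended prior), or 1.41 times the WT level. The other Nr1d2 probeset is dim, with a mean signal of 45.7, and the mean of both gave −0.04. Nr1d1 read 135.8, 373.6, 394.9 and 230.7 in the KO hearts, against 223.0, 285.9, 308.3 and 227.1 in the WT hearts. Its KO values spread to both sides of the WT range, with replicate 1 below it and replicates 2 and 3 above it, and the log2 fold change was 0.01 (SE 0.35, common prior adjusted p = 0.994), with a sign that turned when KO replicate 2, KO replicate 3, WT replicate 1 or WT replicate 4 was left out. Whether Nr1d1 and Nr1d2 differed from each other in their response was not tested.

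Beyond the probesets that stood for the genes, 13 further probesets read these 10 genes, 7 of them with a mean signal under 50 and 11 under 100. None of the 13 separated the genotypes, and the lowest exact permutation p among them was 0.143. For Per1, Cry1, Cry2 and Nr1d1 there was 1 probeset only, so the array holds no second reading of these.

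The arms were then set against each other within each heart, as the mean log2 signal of an arm's genes after each gene's WT mean was subtracted. The activator arm stood at −0.73, −0.47, −0.87 and −0.12 in the KO hearts, against −0.08, 0.03, 0.01 and 0.05 in the WT hearts. All 4 KO hearts were below all 4 WT hearts, with a mean of −0.55 ± 0.33 in KO and 0.00 ± 0.06 in WT (SD, n = 4 each). The repressor arm stood at 0.11, 0.09, 0.14 and −0.07 in the KO hearts, against 0.12, 0.14, −0.10 and −0.15 in the WT hearts, with a mean of 0.06 ± 0.10 in KO and 0.00 ± 0.15 in WT (SD, n = 4 each). The 2 arms thus did not move in opposite directions as wholes. The mean of the 3 activators was lower in every KO heart, but KO replicate 4 (−0.12) lay only just below WT replicate 1 (−0.08). In KO replicate 4 Arntl and Clock were within the WT range and only Npas2 was below it. The repressor mean differed by less than the spread between hearts of 1 genotype. Activator minus repressor averaged −0.61 in KO relative to WT hearts, ranging between −1.01 and −0.04 in the KO hearts and between −0.20 and 0.20 in the WT hearts. The genes were chosen with earlier results in view, so these means are given as descriptions with no test. With the mean of all probesets of a gene, the activator arm differed by −0.42 and the repressor arm by −0.11, both lower in KO hearts. This setting takes in the dim probesets, and its pooled SD of activator minus repressor was the largest (0.56, against 0.33 in the main setting). Under every other alternative the repressor arm was higher in KO hearts, by 0.01 to 0.16. Without Npas2 the activator arm differed by −0.39, and the 2 genotypes then overlapped. KO replicate 4 had higher Arntl and Clock signals (902.3 and 1099) than WT replicate 1 (825.3 and 992.6).

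**Figure D2:**
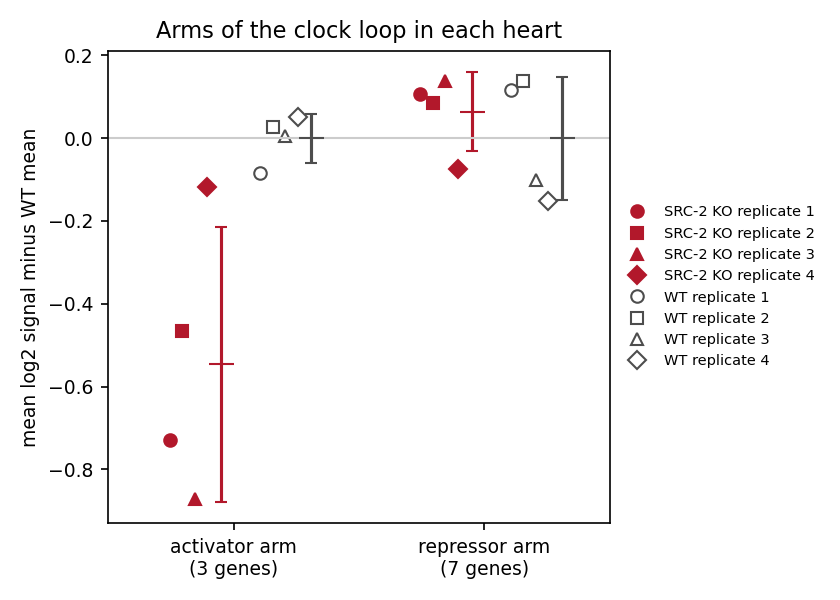
For each heart (filled red, SRC-2 KO; open grey, WT), the mean log2 signal of the 3 activator genes and of the 7 repressor genes is plotted relative to the WT mean, with bars for the mean and SD of each genotype (n = 4). The KO hearts run between −0.87 and −0.12 for the activators, below the WT hearts, and overlap them for the repressors.

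KO hearts differed among themselves more than WT hearts did for several clock genes, and the same hearts stood at the ends. KO replicate 3 had the lowest KO value of Arntl, Npas2, Cry1, Per1 and Cry2, and the highest of Per3, Nr1d1 and Nr1d2. KO replicate 4 had the highest KO value of Arntl, Clock, Npas2 and Cry1 and the lowest of Per3 and Nr1d2. It lay within the WT range for 8 of the 10 genes, while KO replicates 1, 2 and 3 did so for 2, 4 and 2. Its Ncoa2 signal of 235.1 was the lowest of the 8 hearts, so it is a KO heart by the targeted gene.

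The spread of log2 signal between the KO hearts was 0.40 (SD, n = 4) for Arntl, against 0.08 between the WT hearts. Among the 1000 genes nearest in signal, these are the 90.4th percentile of KO spreads and the 7.7th of WT spreads. For Npas2 they are the 90.0th and the 6.8th, for Nr1d1 the 96.1st and the 41.4th, and for Nr1d2 the 93.3rd and the 72.0th. Cry1 (66.0th and 27.4th) and Per3 (50.9th and 32.2nd) also ranked higher in KO, and Per1 ranked alike (78.7th and 76.9th). Clock (24.4th and 62.8th), Per2 (55.9th and 79.1st) and Cry2 (40.4th and 74.1st) ranked lower in KO than in WT. With 4 hearts to a genotype such ranks are a description, and the difference in spread was not tested.

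Leaving out KO replicate 4, a choice singled out after its values were seen, moved 2 clock genes past the threshold with the trended prior. Arntl then differed by −0.69 on the log2 scale (adjusted p = 0.0206) and Nr1d2 by 0.63 (adjusted p = 0.019). Npas2 stood at −1.06 (adjusted p = 0.0571) and Cry1 at −0.69 (adjusted p = 0.12). With the common prior none of the 10 passed without it, the lowest adjusted p being 0.196, for Arntl. The trended prior then called 104 genes higher and 218 lower over the whole array, so the gain was not one of clock genes alone. No other clock gene, and no other alternative tried for these, gave an adjusted p under 0.05.

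Across hearts, with each genotype's mean subtracted, Arntl was compared with the other 9 clock genes, which asks whether hearts of 1 genotype differ along the loop. Pearson's r with Arntl was 0.82 for Cry1 and 0.76 for Npas2, and it was −0.79 for Per3 and −0.74 for Nr1d2 (n = 8 hearts). Spearman's rho was 0.55 for Cry1, 0.31 for Npas2, −0.71 for Per3 and −0.33 for Nr1d2. The exact permutation p within genotype was 0.0764 for Cry1, 0.167 for Npas2, 0.0451 for Per3 and 0.16 for Nr1d2 for r, and 0.215, 0.653, 0.0747 and 0.509 for rho in that order. For Clock r was 0.49 (exact p = 0.0885) and rho 0.81 (exact p = 0.0365). The other 4, Per1, Per2, Cry2 and Nr1d1, lay between −0.32 and 0.32 in r and between −0.29 and 0.38 in rho, with exact p of 0.417 to 0.911. After Benjamini-Hochberg adjustment over the 9 pairs none passed, with adjusted exact p of 0.266 at the lowest for r and 0.328 for rho. KO replicates 3 and 4 were the 2 hearts farthest from the median of Arntl. Without them r became −0.20 for Cry1, −0.37 for Npas2, −0.34 for Per3 and 0.54 for Nr1d2. The relations of Cry1, Npas2 and Nr1d2, which turned sign, thus rest on those 2 hearts, while Per3 kept a weaker negative r. For Clock r was then 0.60. Within the 4 KO and the 4 WT hearts taken apart, too few for a test, r was 0.997 in KO and −0.54 in WT for Cry1, 0.82 in KO and −0.88 in WT for Npas2, and −0.97 in KO and 0.86 in WT for Nr1d2. The value over all hearts thus followed the KO hearts for these 3, whereas Per3 was negative (−0.95 in KO and −0.39 in WT) and Clock positive (0.75 in KO and 0.74 in WT) in both.

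Over the 8 hearts, again with genotype means subtracted, the log2 signals of 9097 brighter genes were ranked by their likeness to Arntl and to Nr1d1. The 4 nearest to Arntl were Myl12b (r = 0.99, rho = 0.81), Emp1 (r = 0.99, rho = 0.83), Ctsz (r = 0.98, rho = 0.95) and Nsd1 (r = 0.98, rho = 0.81). The 4 nearest to Nr1d1 were Mtf2 (r = 0.98, rho = 0.95), Ubfd1 (r = 0.97, rho = 0.88), Tmem106b (r = 0.96, rho = 0.95) and Xpo1 (r = 0.96, rho = 0.93). Without the 2 hearts farthest from the median, r was 0.71 to 0.90 for the first 4 and 0.87 to 0.98 for the others. No other clock gene was among these 8, they were picked as the highest of many, and none of them passed with either prior. Per2 and Per3 were too dim to be searched, and genes with a negative r could not be listed, so the search itself kept some clock genes out.

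The PAR bZIP output genes, which the BMAL1 pair drives through E-boxes, were read next. Dbp read 1441, 1384, 2252 and 628.7 in the KO hearts, against 540.8, 443.0, 525.7 and 391.0 in the WT hearts. The genotypes did not overlap, KO replicate 4 again being nearest to WT, and the log2 fold change was 1.46 (SE 0.37, adjusted p of 0.358 with the common prior and 0.0565 with the trended prior), or 2.75 times the WT level. A second Dbp probeset read 781.9, 651.1, 996.5 and 371.9 in the KO hearts, against 218.4, 246.5, 247.6 and 286.5 in the WT hearts, a log2 fold change of 1.41 (exact permutation p = 0.0286, the smallest possible). With the trended prior Dbp thus missed the threshold, and it passed only after median centring (adjusted p = 0.0472), among brighter genes (0.0457), without KO replicate 4 (0.00261) and with a block on the replicate number. It did not pass with quantile normalization (0.0654), with the mean of its probesets (0.0961), with signals under 50 set to 50 (0.253) or without any 1 of the other 7 hearts (0.103 to 0.161).

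Tef was the only gene of the output and loop lists that passed, and it passed with the trended prior alone. It read 1839, 1495, 2035 and 1566 in the KO hearts, against 1162, 1003, 1250 and 944.2 in the WT hearts, with no overlap. The log2 fold change was 0.67 (SE 0.15, adjusted p of 0.334 with the common prior and 0.0439 with the trended prior). The trended call was lost without any 1 of the other 7 hearts, with adjusted p of 0.0552 to 0.14, and of the hearts only KO replicate 4 could be left out with the call kept, at 0.0227. It was also lost with quantile normalization (0.0548), with signals under 50 set to 50 (0.2) and with the mean of all Tef probesets (0.599). Hlf, the third member, named after its values were seen, read 334.9, 406.4, 736.8 and 383.4 in the KO hearts, against 429.4, 426.6, 410.5 and 305.3 in the WT hearts, a log2 fold change of 0.19 (adjusted p = 0.83). Its 2 probesets disagreed in part, since the second gave 0.57 with 4 KO values above 4 WT values (exact permutation p = 0.0286).

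**Figure D3:**
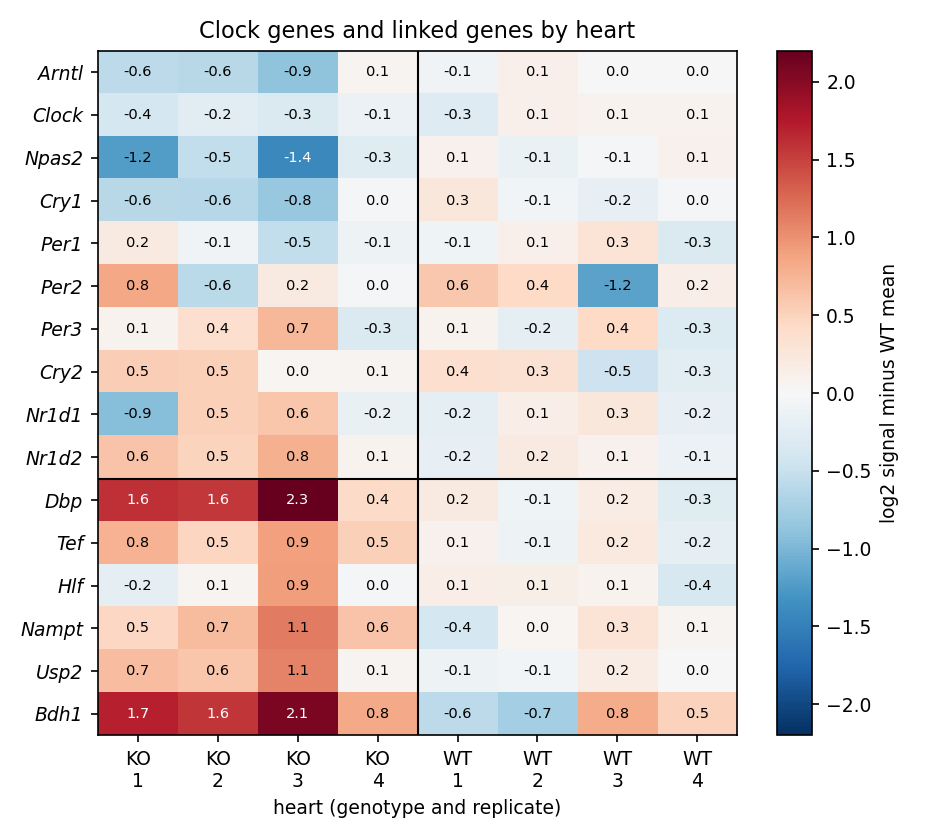
Each cell gives the log2 signal of a gene in 1 heart minus the gene's WT mean, for the 10 clock genes (above the line) and 6 linked genes (below it), with SRC-2 KO hearts to the left of WT hearts. KO replicate 4 is the palest KO column for Arntl, Npas2, Cry1, Nr1d2 and Dbp, and KO replicate 3 the strongest for Arntl, Npas2, Cry1, Nr1d2 and Dbp.

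Of the accessory factors of the loop, 9 were measured, 2 with a higher and 7 with a lower mean in KO hearts, at a median of −0.13, and none passed with either prior. Rora, the nuclear receptor that competes with the REV-ERBs at ROREs, differed by −0.16 on the log2 scale (adjusted p = 0.689 with the common prior), and Bhlhe40, which encodes the E-box repressor DEC1, by 0.24 (adjusted p = 0.69). Rorb, read at 11.57 to 67.34 in KO and 58.24 to 191.5 in WT hearts, differed by −1.55 (adjusted p = 0.481) on partly dim signals. Nfil3, the D-box repressor, was named after its values were seen: it read 675.1, 669.1, 474.9 and 1293 in the KO hearts, against 574.0, 720.2, 937.2 and 905.8 in the WT hearts, and among KO hearts it was lowest in replicate 3 and highest in replicate 4, as Arntl was.

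Of 11 measured kinases, ligases and NAD-linked enzymes that act on clock proteins, 8 had a higher and 3 a lower mean in KO hearts, at a median of 0.11, and none passed with either prior. Nampt, the rate-limiting enzyme of NAD salvage and a clock output in mouse liver, had 4434, 5197, 7117 and 4960 in the KO hearts, against 2449, 3323, 3950 and 3340 in the WT hearts. The genotypes did not overlap, and the log2 fold change was 0.73 (adjusted p of 0.388 with the common prior and 0.0769 with the trended prior), with 0.51 and no overlap in a second probeset and 0.28 with overlap (exact permutation p = 0.457) in the remaining one, of mean signal 179.5. Usp2, a deubiquitinase that cycles in many mouse tissues, was named after its values were seen, at 4944, 4716, 6548 and 3219 in the KO hearts, against 2850, 2953, 3423 and 3096 in the WT hearts. It overlapped through KO replicate 4 (log2 fold change 0.62, adjusted p of 0.437 with the common prior and 0.141 with the trended prior). The casein kinase genes Csnk1d and Csnk1e, whose products time PER turnover, stood at log2 fold changes of 0.12 and −0.0019.

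Of 16 measured heart genes known to cycle or to depend on the clock, 11 had a positive and 5 a negative log2 fold change. The median was 0.19, beside −0.03 for all genes. The trended prior called 2 of the 16, both lower, where it called 0.258% of all genes lower, and the list was chosen with earlier results known. Pdk4, the kinase that shuts pyruvate dehydrogenase, read 18990, 12470, 9005 and 9799 in the KO hearts, against 21630, 27460, 23820 and 29360 in the WT hearts, a log2 fold change of −1.08 (adjusted p of 0.336 with the common prior and 0.0367 with the trended prior). Ucp3, a mitochondrial carrier of muscle, read 507.1, 731.3, 604.7 and 484.3 in the KO hearts, against 1135, 1145, 1094 and 1502 in the WT hearts, a log2 fold change of −1.07 (adjusted p of 0.21 with the common prior and 0.0157 with the trended prior). Both fell with the trended prior and neither overlapped between the genotypes. The Pdk4 call was lost without KO replicate 2, KO replicate 3 or any 1 WT heart (log2 fold changes of −1.16 to −0.94, adjusted p of 0.0815 to 0.136), and the Ucp3 call without WT replicate 2 (−1.10, adjusted p = 0.0724). Both also missed the threshold with signals under 50 set to 50 (0.228 for Pdk4 and 0.137 for Ucp3), a setting that left their own values as they were. With the mean of all probesets Pdk4, which has 1 probeset, kept its value but not its call (0.0961), and Ucp3 stood at −0.86 (0.0638). Bdh1, the ketone body enzyme D-beta-hydroxybutyrate dehydrogenase, pointed the other way, at 3006, 2739, 3858 and 1651 in the KO hearts, against 618.6, 550.9, 1617 and 1309 in the WT hearts. Its genotypes did not overlap, KO replicate 4 lying just above the highest WT heart, and the log2 fold change was 1.55 (adjusted p of 0.388 with the common prior and 0.0739 with the trended prior). Without KO replicate 4, the heart singled out after its values were seen, Bdh1 (0.0194), Usp2 (0.0111) and Nampt (0.0493) had a trended prior adjusted p under 0.05. Without any 1 of the other 7 hearts none of these 3 did, at 0.0614 to 0.191 for Bdh1, 0.195 to 0.293 for Usp2 and 0.0767 to 0.173 for Nampt.

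**Figure D4:**
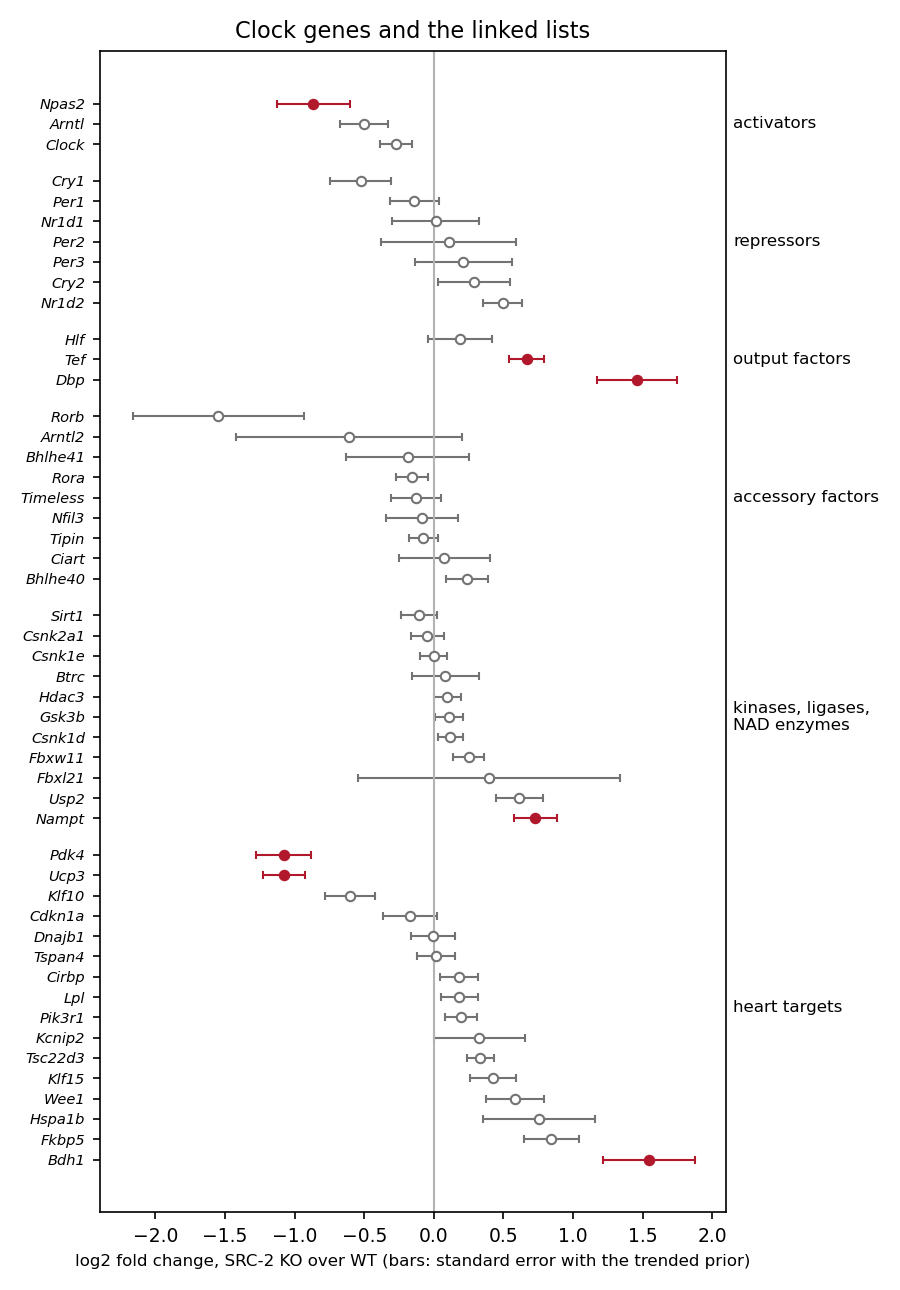
Log2 fold changes (SRC-2 KO over WT) of the 10 clock genes and of the 4 linked lists are drawn with SEs of the trended prior, and filled red points mark genes whose KO and WT values do not overlap. Activators lie to the left of 0, repressors on both sides, and Dbp, Tef, Nampt and Bdh1 to the right.

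Markers of the cell types in a whole heart are given by direction and summed signal. None passed with the common prior, and only Acta2 passed with the trended prior. The common prior adjusted p of the cardiomyocyte markers was 0.585 to 0.758. In bulk RNA fewer cells of a type and less RNA per cell cannot be told apart. All 8 cardiomyocyte markers had a higher mean in KO hearts (summed signal 517600 to 669100 in KO and 428100 to 589100 in WT hearts). All 7 atrial myocyte markers had a lower mean, with sums of 195500, 78700, 16980 and 56170 in the KO hearts, against 155400 to 259200 in the WT hearts. All 7 fibroblast markers (53670 to 81100 in KO and 78890 to 128200 in WT hearts), all 6 endothelial markers (7972 to 10880 in KO and 10440 to 12220 in WT hearts) and all 6 macrophage markers (9183 to 11310 in KO and 11670 to 15350 in WT hearts) had a lower mean. Smooth muscle sums were 28730 to 44460 in KO and 20900 to 25220 in WT hearts. Nearly all of that signal is Acta2 (mean 35600 in KO and 21180 in WT hearts, adjusted p = 0.0422 with the trended prior). The other 3 of 4 markers had a negative log2 fold change, though the mean signal of Tagln was 1141 in KO and 1105 in WT hearts. Of the adipocyte and red cell lists, 2 markers each were measured, with sums of 326.1 to 1456 in KO and 319.9 to 698.0 in WT hearts for adipocytes and of 915.0 to 3598 in KO and 556.7 to 1324 in WT hearts for red cells. No defining marker was at 0, but Hba-a1 was under 50 on all 8 arrays and Lep on 6. The red cell and adipocyte sums are thus mostly Alas2 and Adipoq.

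Set beside the clock genes, these sums followed the order of the KO hearts in part. KO replicate 4 had the highest fibroblast, endothelial and macrophage sums of the KO hearts, and its fibroblast and endothelial sums lay within the WT range. KO replicate 1, whose atrial sum of 195500 lay within the WT range, had Arntl, Clock, Npas2 and Cry1 below every WT heart and Nr1d2 and Dbp above every WT heart. KO replicate 4, whose atrial sum of 56170 lay below every WT heart, had Arntl, Clock, Cry1 and Nr1d2 within the WT range. Pdk4 had the same order among the KO hearts as the atrial sum, highest in replicate 1 and lowest in replicate 3. The part of the atrial, fibroblast, endothelial and macrophage signals in these values was not tested.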

How the data were processed

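RNA of 8 whole hearts was read on Affymetrix mouse expression arrays. Expression Console, Partek and RMA are the tools in the processing notes of the submitters. The deposited values are intensities on a linear scale (0.219 to 124739), each array having a mean of 500.0 after 2% of probesets was trimmed at each end. They are not the log2 RMA values that the study's methods name for its own test. The fit had been planned on log2 RMA values, so the log2 of the deposited intensities was computed here, with no floor.

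Of 45101 probesets, 64 controls, 9160 without an entry in the annotation used and 932 with several symbols were left out, and 34945 with 1 symbol gave 18193 genes, each read by its brightest probeset. Genotypes were compared by lmFit and eBayes of limma 3.58.1, in R 4.3.3, with a common prior variance (the common prior) as the main fit, closest to the random variance model test in the study's methods, and a prior variance trended on signal (the trended prior) beside it, Benjamini-Hochberg over all genes. The fits were tested on simulated data. Single probesets and correlations were tested by exact permutation in SciPy 1.17.1, for which the smallest p is 0.0286 for 4 against 4 hearts and 0.00174 for the 576 permutations within genotype.

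The 10 genes and the lists (102 entries, 92 measured) were chosen with earlier results of these data known. Linked genes were named when they passed in either fit or did not overlap between genotypes, and otherwise up to 3 of a list with the smallest p. Hlf, Usp2, Nfil3, Csnk1d and Csnk1e were named outside this rule. Each array is a separate mouse. The labels do not say that replicate numbers pair the genotypes, so the main fits were unpaired. Alternatives changed the spread model, array weights, the probeset rule, dim genes, scaling and the hearts kept. The study's other experiments were not used here.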

Additional observations from a re-analysis of the deposited data

Results flagged for a closer look

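In 44 groups of 4 hearts (22 named genes in 2 genotypes), 3 held a heart whose gap to the nearest of the others exceeded Dixon's critical share of the group's range, and chance flags about 1 group in 20. Clock in WT replicate 1 read 992.6 where the other WT hearts read 1275 to 1306 (gap 0.9125 of the range on the log2 scale). Hlf in WT replicate 4 read 305.3 where the others read 410.5 to 429.4 (0.868). Ucp3 in WT replicate 4 read 1502 where the others read 1094 to 1145 (0.8562). Without the heart in question, the log2 fold change was −0.36 for Clock, which passed in neither fit, 0.069 for Hlf, against 0.19 with all hearts, and −0.97 for Ucp3, whose call with the trended prior was kept (adjusted p = 0.0455).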

How the results depend on the processing

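The counts of called genes depended on the model. With the common prior 1 gene was higher and 3 lower in KO hearts. A random variance model, the kind of test in the study's methods, gave the same counts on these values, and median centring gave 1 higher and 4 lower. Higher genes numbered 22 with the trended prior, 4 among the 9097 brighter genes and 0 with each gene's own variance, the replicate block, the mean of all probesets, signals under 50 set to 50 or quantile normalization. Lower genes numbered 47 with the trended prior, 18 among the brighter genes, 5 with array weights, 1 with own variance or the mean of all probesets and 0 with the replicate block. Leaving out 1 heart gave 0 to 1 higher and 1 to 5 lower genes. With the trended prior, 22 higher genes became 3 with the mean of all probesets and 0 with the floor of 50, and 47 lower became 30 with quantile normalization, 12 with the mean of all probesets and 2 with the floor. Without 1 heart there were 2 to 104 higher and 3 to 218 lower, both highest counts being without KO replicate 4. The joint settings of the trended prior were added after the data were seen.

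Of 719 values of single genes under alternatives, 656 kept sign and side of the threshold, 22 lost and 14 gained a call, and 27 turned sign, none of them a called value. The sign turned for Arntl in unmarked probesets (0.038), for Nr1d2 with the mean of all probesets (−0.037), for Per3 with it (−0.13), and for Per2 with it (−0.25) and with the floor (−0.021). Leaving out 1 heart ranged between −0.28 and 0.34 for Per2, −0.19 and 0.33 for Nr1d1, −0.059 and 0.32 for Hlf and −0.36 and 0.12 for Nfil3. The cause was not tested. Of 45 correlation values with Arntl 6 turned sign, without KO replicates 3 and 4 for Npas2 (−0.37), Per2 (0.13), Cry1 (−0.20), Nr1d1 (0.16) and Nr1d2 (0.54), and with the mean of all probesets for Nr1d2 (0.078). The difference between the arms kept its sign under all 15 alternatives, between −0.80 and −0.31. Cry1 has no unmarked probeset, and Per2 and Per3 were under the filter on dim genes, so these gave no value there.

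Same-numbered KO and WT hearts correlated at 0.07, −0.08, −0.03 and 0.12 in their deviations. The same-numbered WT heart had the highest r for KO replicates 1 and 4. For KO replicates 2 and 3 it was WT replicate 3 (0.15) and WT replicate 1 (0.09). Whether a shared replicate number means a shared litter or day cannot be told from these values. With that number as a block, the trended prior called 25 genes higher and 47 lower, none of the 10 clock genes passed, and Dbp (adjusted p = 0.0318) and Nampt (0.0238) did, while Pdk4 (0.0534) did not. Signal limits Per2 and Per3, and no brighter probeset reads them.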
